A study of Sparus aurata with 16 samples.

Results

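In the gilthead sea bream, Sparus aurata, 47 transcripts were lower in the liver and higher in the skeletal muscle of starved fish than of fed fish. They were chosen from 25225 assembled sequences on an oligonucleotide microarray. Values were the log2 processed signals of the scanner software, averaged over the spots of a sequence in each channel. A sequence was kept when the mean of the starved fish lay at least 0.7 below that of the fed fish in the liver and at least 0.7 above it in the muscle, and when all 4 starved fish lay outside the range of all 12 fed fish in both tissues. In each of the 12 fed livers and 4 starved muscles, a spot of the sequence also had to be well above background. The change with starvation therefore chose the sequences, and it is given below as a description, with no test.

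Juvenile fish were starved for 23 days or were fed for the same time with diet LLH, MHL or HLL at 1 daily meal of 25 g per kg of fish. The letters give the level (high, medium or low) of protein, lipids and carbohydrates, in that order. RNA from liver and from white skeletal muscle, with 4 fish per condition, was labelled with Cy5 or Cy3, and each of the 16 arrays compared 1 fish with 1 fish of another condition. The Cy5 fish of 1 liver array, HLL fish 1, is named as HLL in its title and as LLH in its source description, and it was taken as HLL. The labels do not say whether fish of 1 condition shared a tank, so p-values measure the spread between these fish only.

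In fasting fish the liver is known to draw on its glycogen and lipid, and to lower the synthesis of new lipid. White muscle, the bulk of the body, is a store of protein that can be broken down for fuel when food is withheld for long. The same transcript can be regulated differently in different tissues. The measurements were made on whole tissue, in which fewer cells of a type and less RNA per cell cannot be told apart.

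Of the 47 sequences, 46 carried an identifier of the assembly (isotig) and 1, IFXJFUR01ER2AI, that of a single sequencing read. None carried a gene symbol, and the 8 sequences on the array that do are not among them. They are called by their identifiers, and no role is given to any of them. The label of the tissues was not checked on marker genes, and apart from those 8 sequences the identifiers carry no gene names. All 8 liver arrays shared 1 slide, and all 8 muscle arrays shared a second slide. Between 57.9 and 66.6% of the spots of a liver channel and between 56 and 65.3% of those of a muscle channel were well above background, and no spot was saturated.

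The liver part of the rule was met by 391 sequences (1.55% of 25225) and the muscle part by 2903 (11.5%). Both were met by 49 (0.194%), which is 12.5% of the liver list and 1.69% of the muscle list. Of these, 2 were left out because some required channel had no spot well above background. On the scale of the rule the 47 sequences fell in starved liver by a median of 1.31 (log2), with changes between -3.63 and -0.75. In muscle they rose by a median of 2.27, between 1.03 and 4.41.

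The threshold was reached first in the liver. Just inside it lay isotig00026, isotig00016 and isotig06275, with liver changes of -0.75, -0.75 and -0.76 and muscle changes of 2.37, 2.37 and 1.19. Just outside it, among sequences that met every other condition, lay isotig07388, isotig09468 and isotig02213. Their liver changes were -0.70 (just short of the threshold), -0.66 and -0.57, and their muscle changes were 1.52, 1.43 and 1.14.

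Processed signals are not scaled between arrays, and the arrays that held starved fish were brighter. In the muscle, the median log2 signal of a channel lay between 5.85 and 6.36 in the 4 starved fish. It lay between 5.76 and 6.40 in the 4 fed fish on the same arrays, and between 5.23 and 5.65 in the 8 fed fish on the other arrays. In the liver the ranges were 6.01 to 6.16, 5.97 to 6.14 and 5.39 to 5.95. Over all 25225 sequences the median change on the scale of the rule was 0.24 for liver and 0.52 for muscle. Starved and fed fish on the same array had like medians.

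Each starved fish shared its array with 1 fed fish, and the difference between these partners does not contain the difference in brightness between arrays. Its direction was fixed, since the rule placed every starved fish outside the range of all fed fish, and its size is given as a description. Liver had a median within-array change of -1.57 and muscle one of 1.70, where the medians of all sequences were -0.09 and -0.02. These values are on processed signals, and the partners were HLL or LLH fish, with no MHL fish among them.

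After the median of each channel was subtracted from the processed signals, all 47 still met the liver part of the rule and 34 met both parts. The other 13 failed in the muscle. With that centring 121 sequences of the array met the whole rule, so that membership depended on the scale in both directions.

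**Figure D1:**
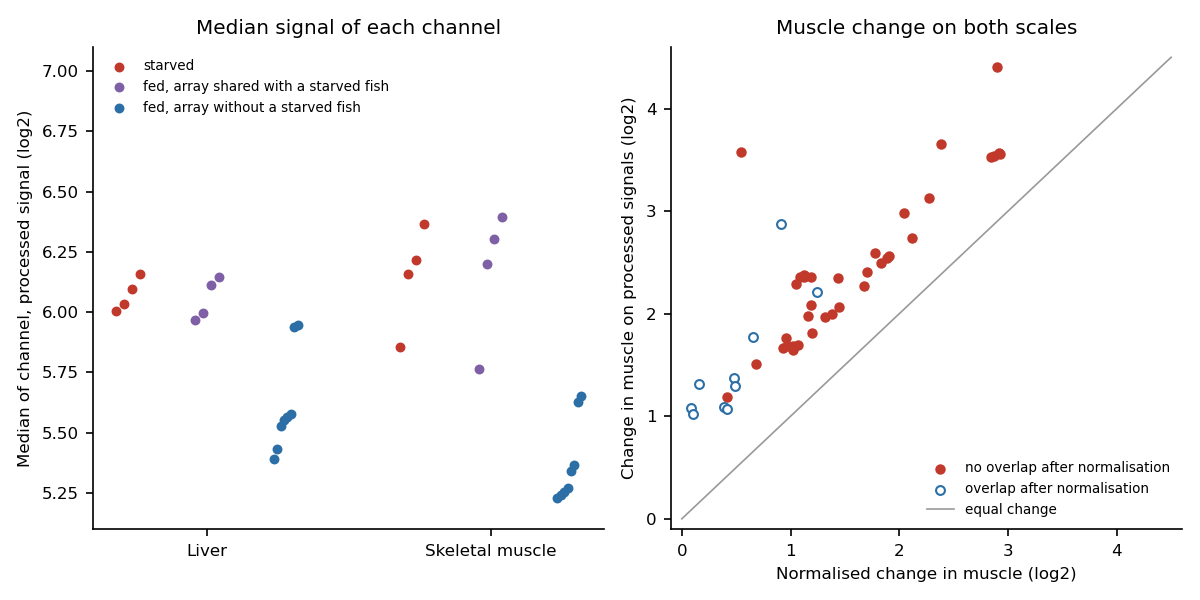
Left, median log2 processed signal of each channel for starved fish, for fed fish on an array with a starved fish and for fed fish on other arrays (4, 4 and 8 per tissue). Right, the change in muscle (starved minus fed, log2) of the 47 sequences on processed signals against the change after normalisation. All points lie above the line of equal change.

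All further values are log2 intensities after background correction, Loess within arrays and Aquantile between arrays. On this scale the median change of all sequences was 0.00 in both tissues. The median change of the 47 sequences was -1.30 in the liver (range -3.86 to -0.65) and 1.16 in the muscle (range 0.08 to 2.93). In the liver 37 of the 47 were at least 2-fold lower in starved fish, against 2.74% of all sequences. In the muscle 32 were at least 2-fold higher, against 4.09% of all sequences, and 25 passed 2-fold in both tissues. The share of all sequences past 2-fold or 4-fold in both tissues is not given here. The rule asked for both changes, so nothing is read from the joint count. The liver change was the larger of the pair in 27 sequences and the muscle change in 20.

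Starved and fed livers did not overlap for 47 of 47 sequences, where 5.78% of all sequences were lower without overlap. The number was 40 with median centring, 45 without normalisation between arrays, 46 with no background correction, and 47 in the other 5 such alternatives. Of all 25225 sequences 1458 were lower without overlap on the main values. In these alternatives, in the same order, 723, 1453 and 1456 were, and between 1396 and 1489 in the other 5 (18509 to 25225 sequences tested). In the muscle they did not overlap for 37 of 47, where 9.73% of all sequences were higher without overlap. The remaining 10 overlapped in the muscle once the arrays had been normalised. They were isotig01401, isotig01406, isotig03636, isotig06194, isotig06397, isotig07213, isotig08309, isotig08583, isotig10003 and isotig10590. All of these are among the 13 that failed after centring. Their muscle changes ran between 0.08 and 1.24 (median 0.45), and those of the other 37 between 0.42 and 2.93 (median 1.32). Under 7 other background corrections, normalisations or probe choices the number without overlap in muscle was between 35 and 38, and it was 23 without normalisation between arrays. Of all 25222 sequences 2453 were higher in muscle without overlap on the main values, and 1139 without normalisation between arrays. Under the 7 others between 2289 and 2535 were (18498 to 25222 sequences tested).

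The smallest normalised muscle changes were 0.08 for isotig10590, 0.10 for isotig06397 and 0.16 for isotig06194. These values include an offset of 50 added in the background correction, and their size depended on the scale. In the same order, the muscle changes were 0.51, 0.62 and 0.71 within arrays. In the authors' log2 ratios they were 0.25, 0.27 and 0.30. The normalised liver changes of these sequences were -1.14, -1.30 and -1.97. All 3 are among the 10 that overlapped in muscle. A spot of isotig10590 was well above background in only 5 of the 12 fed muscles, and one of isotig06194 in 11.

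Across the 47 sequences the correlation of the liver change with the muscle change was -0.01, given as a description over sequences that share the same fish and arrays. The largest liver fall and the largest muscle rise were in different sequences. On normalised values the largest liver falls were -3.86 in isotig13108, -3.79 in isotig01401 and -3.77 in isotig01406, with muscle changes of 1.20, 0.41 and 0.39. The largest muscle rises were 2.93 in isotig02229, 2.92 in isotig02228 and 2.90 in isotig06373, with liver changes of -1.20, -1.22 and -3.19. Only isotig06373 and isotig08286 passed 4-fold in both tissues.

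**Figure D2:**
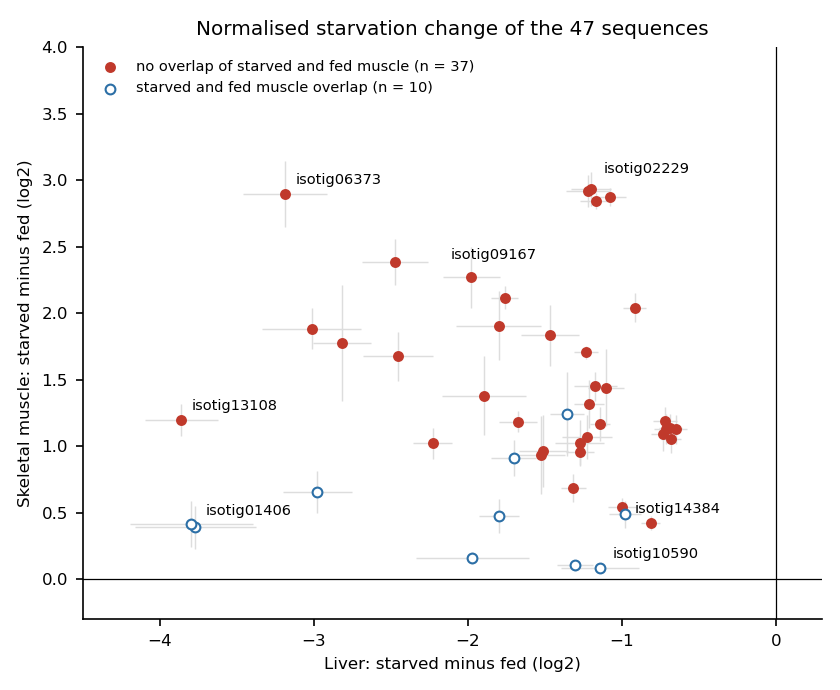
Normalised log2 change (starved minus fed, with its standard error) of each of the 47 sequences in the liver (horizontal) and the skeletal muscle (vertical). Filled points are the 37 whose starved and fed muscles did not overlap, and open points are the 10 that did. All lie below 0 in the liver and above 0 in the muscle.

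The 10 sequences with the largest lesser change on the scale of the rule are given by fish. The first, isotig06373, measured 7.94, 7.19, 7.05 and 7.23 in starved livers, and between 8.80 and 11.46 (median 10.73) in fed livers. In starved muscles it measured 10.11, 9.99, 10.07 and 10.41, and between 6.62 and 8.44 (median 7.18) in fed muscles. The groups were far apart in both tissues, with a change of -3.19 ± 0.27 (SE) in the liver, or 9.10-fold lower, and of 2.90 ± 0.25 in the muscle, or 7.44-fold higher. The levels of the tissues changed places.

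For isotig08286 the starved livers measured 7.97, 8.64, 8.52 and 8.21, and the fed livers between 10.20 and 11.41 (median 10.82). In starved muscle it measured 10.82, 10.09, 10.28 and 10.26, and the fed muscles between 7.60 and 8.77 (median 7.86). The 2 changes were nearly equal in size, at -2.47 ± 0.22 in the liver and 2.38 ± 0.17 in the muscle. The highest fed muscle was LLH fish 3, which stood apart from the rest of its group.

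For isotig04749 the starved livers measured 11.94, 12.67, 12.76 and 12.44, and the fed livers between 14.36 and 16.01 (median 15.47). The liver change was -2.82 ± 0.19. Its starved muscles lay close together at 11.99, 12.06, 11.95 and 11.85, while fed muscles spread between 8.89 and 11.70 (median 10.16). The muscle change of 1.77 ± 0.44 had the larger error, and the lowest starved muscle was only a little above the highest fed one.

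Fed livers were uneven for isotig08447. Starved livers measured 11.07, 10.93, 11.17 and 11.22, and fed livers between 11.72 and 14.86 (median 14.56). The 2 lowest fed livers were HLL fish 3 at 11.72 and HLL fish 1 at 12.10, and the lowest of the other 10 was HLL fish 2 at 13.88. In muscle, starved fish measured 13.01, 13.63, 12.79 and 13.10 and fed fish between 10.75 and 11.79 (median 11.27). The changes were -3.01 ± 0.32 in the liver and 1.88 ± 0.15 in the muscle.

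The sequence isotig09167 measured 6.86, 7.67, 7.35 and 6.93 in starved livers and between 8.47 and 10.17 (median 9.21) in fed livers. Its starved muscles measured 11.97, 10.60, 11.02 and 10.89, and its fed muscles between 8.01 and 9.57 (median 8.87). The changes were -1.98 ± 0.18 and 2.27 ± 0.23. Fed fish had this sequence at like levels in both tissues, and starved fish did not.

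Some values of isotig14384 were near the background. Its starved livers measured 6.34, 6.38, 6.35 and 5.96, and its fed livers between 6.84 and 7.51 (median 7.26). Its starved muscles measured 7.06, 6.72, 6.68 and 6.51, and its fed muscles between 6.08 and 6.40 (median 6.21). No spot of it was well above background in any fed muscle. Its muscle level was therefore at least 1.45-fold higher in starved fish, where the fed level was taken as the higher of its own value and the lowest signal well above background on each array. On the scale of the rule its muscle change was 3.58, where its mean log2 processed signal in fed muscle was 2.43.

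For isotig06143 the starved livers measured 12.28, 13.73, 12.57 and 12.38, and the fed livers between 14.60 and 15.76 (median 15.18). Starved muscles had 14.08, 14.43, 14.53 and 14.53, and its fed muscles between 11.97 and 13.52 (median 12.63). Starved fish 2 was the least lowered in the liver. The changes were -2.45 ± 0.23 and 1.67 ± 0.18.

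The next sequence, isotig07400, was the most even of the 10 in starved liver, at 6.60, 6.63, 6.62 and 6.47, against fed livers between 7.48 and 8.45 (median 7.77). In starved muscle the values were 12.46, 12.35, 12.68 and 12.95, and in fed muscle they lay between 10.82 and 12.05 (median 11.23). The changes were -1.22 ± 0.10 and 1.32 ± 0.18. It is also among the 13 that failed the muscle part of the rule after centring, with a gap of -0.02 between starved and fed muscles.

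For isotig08827 the starved livers measured 8.74, 8.22, 7.92 and 7.55, and the fed livers between 9.08 and 10.78 (median 10.09). Starved muscles gave 16.66, 16.94, 16.83 and 16.71, and its fed muscles between 14.50 and 16.56 (median 15.26). The changes were -1.90 ± 0.27 and 1.38 ± 0.30. It was abundant in muscle in both conditions, and the highest fed muscle came close to the lowest starved one.

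The last, isotig13108, had the largest liver change of the 47 on normalised values. In the authors' log2 ratios isotig01401 and isotig01406 fell further. Its starved livers measured 11.37, 11.37, 12.79 and 11.40, and its fed livers between 15.18 and 16.31 (median 15.42). Starved fish 3 was the exception among starved livers, and it too lay below all fed livers. Its starved muscles measured 14.23, 14.86, 14.82 and 14.71, and its fed muscles between 13.21 and 13.84 (median 13.46). The changes were -3.86 ± 0.24, or 14.5-fold lower in starved liver, and 1.20 ± 0.12, or 2.29-fold higher in starved muscle.

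**Figure D3:**
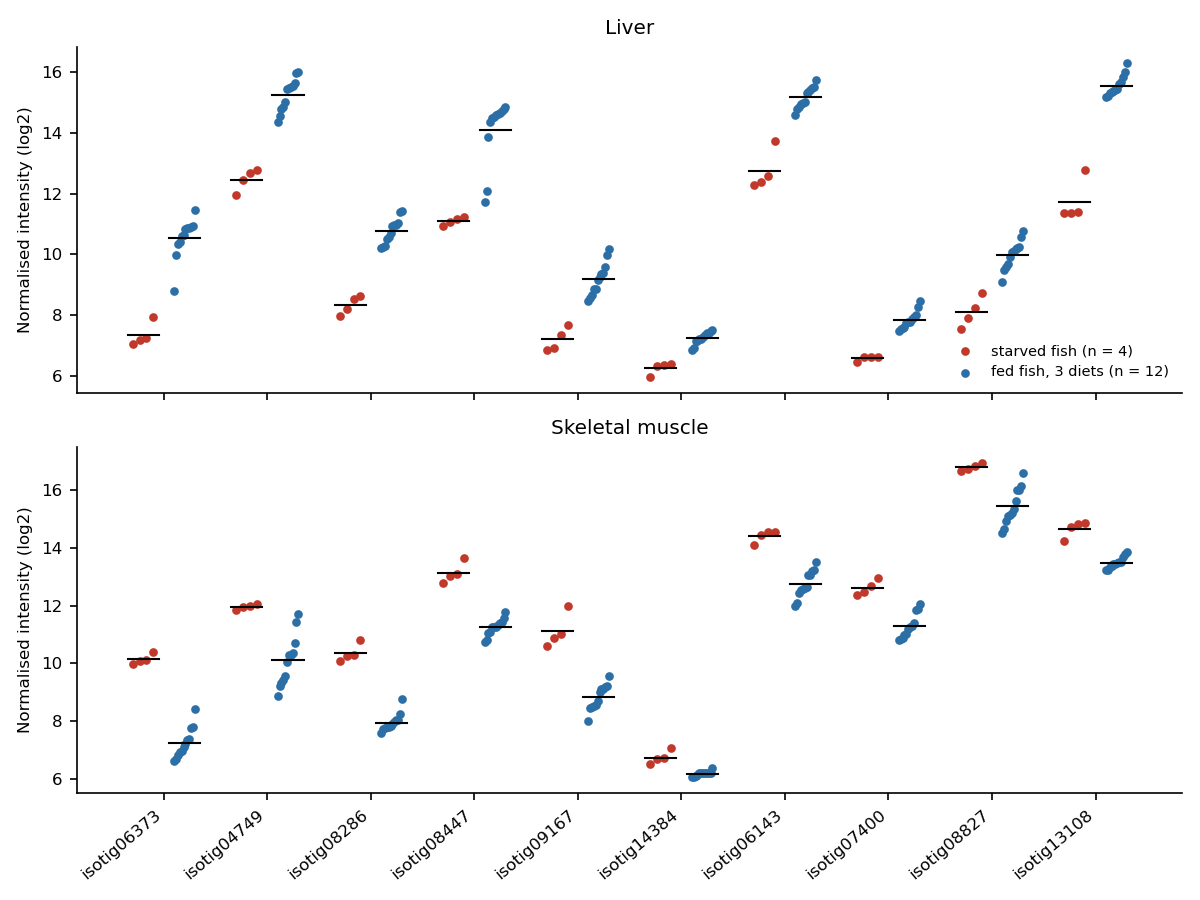
Normalised log2 intensity of the 10 sequences in each fish, in the liver (top) and the skeletal muscle (bottom). Each pair shows 4 starved fish on the left and 12 fed fish on the right, sorted by value, with bars at the means. Starved and fed fish do not overlap for any of the 10 in either tissue.

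The order of the tissues was tested in 1 fit over all arrays. The difference between starved and fed fish in that order follows from the rule, and the order within each condition was not used by it, although the rule asked for signal above background in fed liver and starved muscle. Tissue and slide cannot be told apart in these intensities. The labels do not say whether liver and muscle with the same condition and number came from the same fish. In starved fish, 9 of the 47 sequences were significantly higher in the liver and 33 lower in the liver than in the muscle (limma, adjusted over all sequences), where 30.0% and 34.9% of all 25222 sequences were. In fed fish 33 were higher in the liver and 11 lower, against 35.3% and 38.2% of all sequences. The rule favours sequences high in fed liver and in starved muscle, so nothing is read from these counts against those of the array. With condition and fish number as a block across both tissues the 4 counts were the same. The median difference between liver and muscle was -1.51 in starved fish and 1.02 in fed fish.

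The 47 sequences fell into 5 kinds by these calls. The share of all sequences in each kind is not given here. The rule favours a high level in fed liver and in starved muscle, so nothing is read from the 5 counts against the array. The tissues changed places in 19, which were lower in liver than muscle in starved fish and higher in liver in fed fish, both past the threshold. They include isotig06373, isotig08286, isotig08447, isotig06143 and isotig13108 and all 6 members between isotig00016 and isotig00026. They also include isotig14384, whose fed muscle value is only a bound. None of the 19 overlapped in muscle.

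The liver was the higher tissue in both conditions for 9 sequences, of which 7 are among the 10 whose muscles overlapped. The muscle was the higher tissue in both for 11, none of which overlapped. In 5 sequences the liver was higher in fed fish and no difference was called in starved fish. In 3 the muscle was higher in starved fish and no difference was called in fed fish.

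The sequence with the largest liver excess in fed fish was isotig01406. It stood 3.41 ± 0.38 (SE) higher in liver than muscle in starved fish (adjusted p = 9.4e-09) and 7.62 ± 0.23 higher in fed fish (adjusted p = 5.1e-21). Starved livers measured 11.63, 14.31, 13.01 and 11.63, a wide spread, and fed livers between 15.67 and 16.87 (median 16.41). Its starved muscles lay between 8.63 and 8.72, inside the range of fed muscles, between 7.71 and 9.31 (median 8.30). Only HLL fish 1, at 9.31, lay above the starved muscles. The other HLL muscles reached 8.41, the MHL muscles 8.33 and the LLH muscles 8.43.

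At the other end, isotig08827 was lower in the liver, with a difference from the muscle of -9.07 ± 0.35 in starved fish (adjusted p = 2.8e-18) and of -5.84 ± 0.21 in fed fish (adjusted p = 3.1e-19). No difference was called for isotig04749 in starved fish, at 0.03 ± 0.44 (adjusted p = 0.97), against 4.63 ± 0.27 in fed fish. The reverse case was isotig09167, with -4.19 ± 0.26 in starved fish and 0.04 ± 0.16 in fed fish (adjusted p = 0.83).

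**Figure D4:**
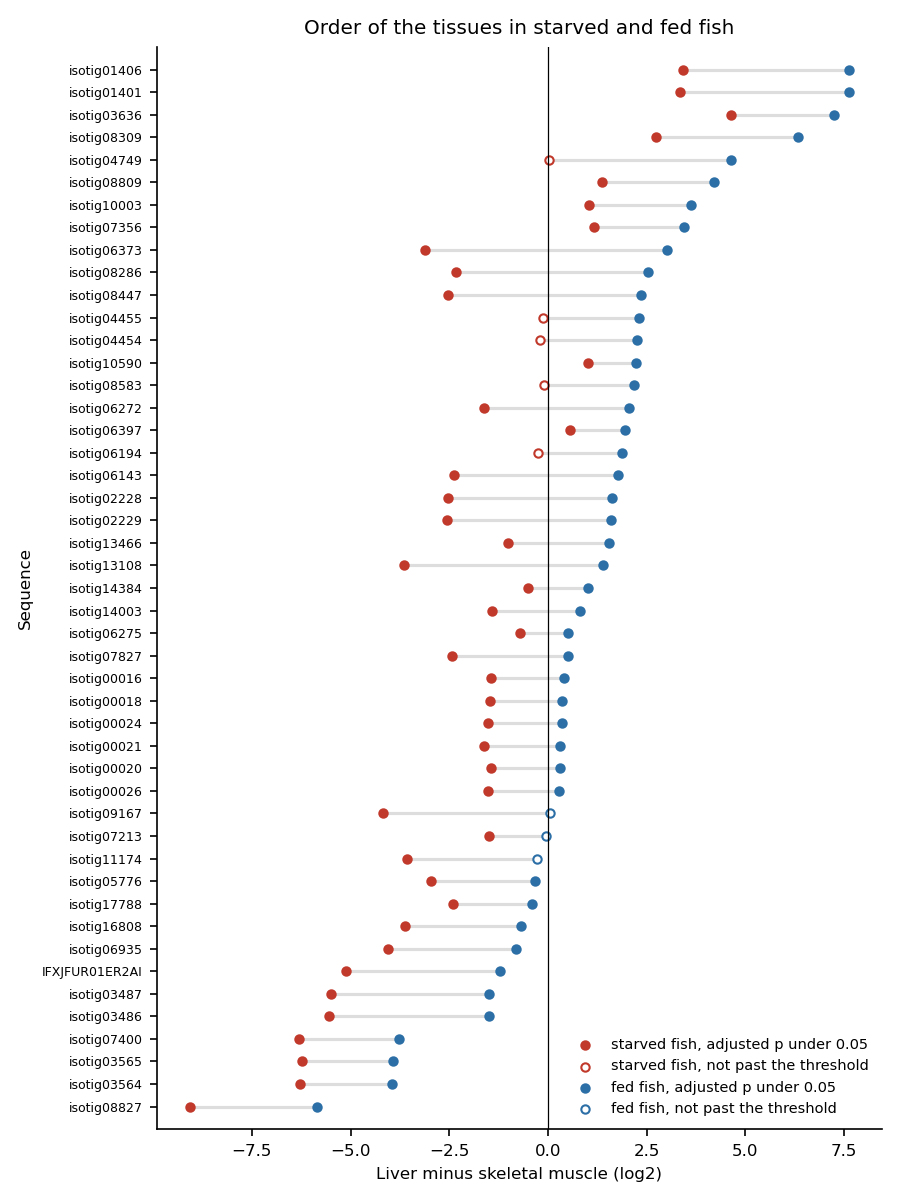
Difference of the log2 level between liver and skeletal muscle for each of the 47 sequences, in starved fish and in fed fish, sorted by the value in fed fish. Filled points passed an adjusted p of 0.05 and open points did not. Each line shifts to the left in starved fish, which the choice of sequences fixes.

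The 3 diets were compared among fed fish, a contrast that the rule did not use. The rule did bound the fed values, by signal above background in fed liver and by no overlap with starved fish. All sequences include dim ones. In the liver 1 of the 47 sequences passed for LLH against HLL and it was lower in LLH, where 1.05% of all sequences were higher and 1.12% lower. None passed for MHL against HLL (0.702% of all sequences higher and 0.793% lower) or for LLH against MHL (0.00396% lower). Without adjustment, 18 of the 47 had a p under 0.05 for LLH against HLL (14.9% of all sequences did), 11 for MHL against HLL (15.4%) and 12 for LLH against MHL (8.82%). With dim probes left out these were 18 (18.5%), 10 (18.8%) and 12 (10.2%), in the same order. With the fish of uncertain diet taken as LLH they were 8 (9.72%), 5 (12.6%) and 7 (7.88%). In a fit of log ratios they were 7 (9.38%), 8 (10.2%) and 2 (5.93%). In the muscle none of the 47 passed in any contrast. An unadjusted p under 0.05 was found in muscle for 5 in LLH against HLL (11.6% of all sequences), for 8 in MHL against HLL (10.2%) and for 4 in LLH against MHL (6.12%). Of all sequences, 0.167% were called higher and 0.0674% lower in muscle for LLH against HLL, 0.00396% higher and 0.0119% lower for MHL against HLL, and none for LLH against MHL.

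The 1 called sequence was isotig08583. Its fed livers measured 9.47, 8.95, 9.45 and 9.63 with diet LLH, between 9.47 and 10.09 with diet MHL, and 10.06, 10.02, 10.42 and 10.16 with diet HLL. The LLH fish were all below the HLL fish, and the MHL fish overlapped with both. The difference of LLH from HLL was -0.82 ± 0.16 (adjusted p = 0.025). Starved livers were lower than all of them, between 7.86 and 8.18. The difference lost its call in 5 of the 16 fits that left out 1 fish (LLH fish 1 or 3, HLL fish 1, 2 or 3), with adjusted p-values between 0.05 and 0.072. It also lost it with processed signals after Loess and Aquantile (adjusted p = 0.052) and in a fit of log ratios (adjusted p = 0.36). The same held with the fish number as a replicate block, and with the fish of uncertain diet taken as LLH (adjusted p = 0.26). The number of the 47 called for LLH against HLL was 5 without LLH fish 4 or HLL fish 4 (1.73% and 2.19% of all sequences were called), 3 without starved fish 1 (2.25%), and 2 without starved fish 4 or MHL fish 2 (2.35% and 2.16%). Without HLL fish 4, 2 were called for MHL against HLL (1.49% of all sequences).

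The largest difference between diets among the 47 was that of isotig08447, 1.66 ± 0.40 higher with LLH than with HLL (adjusted p = 0.054) and 1.496 ± 0.39 higher with MHL than with HLL (adjusted p = 0.081). It rested on HLL fish 3 and fish 1, given above, and fish 1 is the fish of uncertain diet. The fitted differences between diets ran between -1.13 and 1.66 in the liver and between -0.58 and 0.74 in the muscle, and apart from isotig08583 in the liver none passed the threshold. The median starvation change in starved liver was -1.35 against LLH, -1.43 against MHL and -1.44 against HLL. In starved muscle it was 1.17 against LLH, 1.22 against MHL and 1.12 against HLL.

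Neighbouring identifiers made up a good part of the list. In the assembly, isotigs with adjacent numbers can be alternative transcripts of 1 gene, and probes may then measure the same RNA. Counting runs of members at most 10 numbers apart, 18 of the 47 sequences fell into 7 runs and 29 stood alone, so that the list holds 36 units. In 6 runs the members had nearly the same changes. The exception was the run of isotig06272 and isotig06275, which changed by -1.53 and -0.76 in the liver and by 2.56 and 1.19 in the muscle on the scale of the rule. Their signals differed by a median of 4.32 over the 32 channels, while those of isotig02228 and isotig02229 differed by 0.04.

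The 2 largest runs were cut through by the rule. The 13 sequences between isotig00014 and isotig00026 changed by between -0.85 and -0.67 in the liver and between 2.29 and 2.42 in the muscle. All 13 met the muscle part, and 6 met the liver part, with gaps between starved and fed livers of up to 0.06. The 7 others failed, with gaps down to -0.41. The 8 sequences between isotig01400 and isotig01407 changed by between -3.54 and -3.50 in the liver and between 0.997 and 1.10 in the muscle. All 8 met the liver part, and isotig01401 and isotig01406 alone met the muscle part, with gaps of 0.01 and 0.05.

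**Figure D5:**
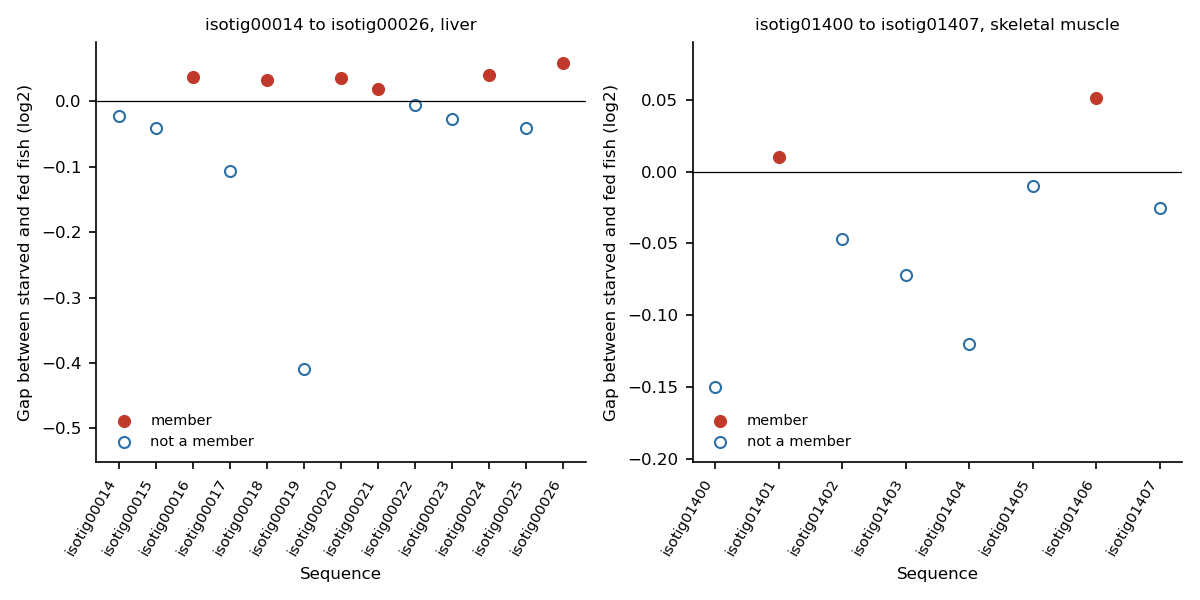
Gap between starved and fed fish on the scale of the rule (log2, positive where they do not overlap) for neighbouring identifiers. Left, isotig00014 to isotig00026 in the liver, with 6 of 13 above 0. Right, isotig01400 to isotig01407 in the skeletal muscle, with 2 of 8 above 0.

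The probes of a sequence went the same way. Of the 47 sequences 46 had 2 different probes, and both were lower in starved liver and higher in starved muscle in 46 of 46. In 44 each probe alone passed 0.7 in both tissues. Since the rule used both probes, this is a description of the list. A spot was well above background in all 4 starved livers for 46 sequences and in all 12 fed muscles for 43. The exception in starved liver was isotig14384 (3 of 4). The exceptions in fed muscle were isotig14384 (0 of 12), isotig10590 (5 of 12), and isotig03636 and isotig06194 (11 of 12 each).

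The spread among fish was of like size in starved and fed groups. The median SD over the 47 sequences was 0.18 among starved livers and 0.21 among livers of fish on 1 diet. In the muscle it was 0.19 among starved fish and 0.22 among fish on 1 diet. Set against the mean of the fed fish, the median over the 47 sequences was -1.29, -1.28, -1.22 and -1.55 in starved livers 1 to 4, and 1.15, 1.06, 1.09 and 1.27 in starved muscles 1 to 4. Starved liver 1 was the lowest for 21 sequences and the highest of the 4 for 14.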

How the data were processed

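The authors labelled total RNA of 32 tissue samples with Cy3 or Cy5 and hybridised it on 16 two-colour arrays with dye swap. The scanner files that they deposited come from Agilent Feature Extraction 10.7 and hold, for both channels, the median intensity and local background of each spot and a processed intensity. These files also hold a log10 ratio of Cy5 over Cy3, which the authors deposited as that software computes it and which served here to find the row order of the next table. The authors also deposited normalised log2 ratios of Cy5 over Cy3.

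Members were found on log2 processed intensities of non-control spots. For the other values, median intensities were corrected with normexp (offset 50), 1319 control spots were left out, outlier spots were set to missing, and Loess and Aquantile followed, in limma 3.58.1 (R 4.3.3, statmod 1.5.0). Probes of a sequence were averaged. The model held group and dye, and the array entered as random block (intraspot correlation 0.151 in each tissue, 0.131 over both). P-values are two-sided, were adjusted by Benjamini-Hochberg across the array, and count as passed under 0.05.

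Members and lists were chosen with earlier results of these data known. Named sequences are the 10 with the largest lesser change, 3 on each side of the threshold of 0.7, up to 3 called per diet contrast, and the extremes of the difference between tissues. Lists of pathway genes and cell type markers were not used here, since the identifiers of the 47 sequences carry no gene names. Alternatives were other background corrections, normalisations and probe choices, log ratios, no dye term, the fish number as a block, the other diet for the uncertain fish, the authors' ratios, thresholds of 0.5 and 1.0, and each fish left out.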

Additional observations from a re-analysis of the deposited data

Results flagged for a closer look

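All starved fish lay below all fed fish in the liver and above all of them in the muscle for 37 of the 47 sequences on normalised values. The choice of the sequences fixes the opposite directions, and the difference was not tested, so nothing is read from the 37. Of all sequences, 5.78% were lower without overlap in the liver and 9.73% higher without overlap in the muscle. The share that met both is not given here.

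Of 120 groups of 4 fish examined (15 named sequences, 2 tissues), 8 held a fish far from the other 3, where chance gives about 1 in 20. The number is close to that share, and the groups share the same fish and are not independent. Nothing is read from it, and the values are listed as a description. In starved liver, isotig13108 measured 12.79 in fish 3 and between 11.37 and 11.40 in the others. In starved liver fish 4, isotig14384 measured 5.96 (6.34 to 6.38 in the others) and isotig07400 measured 6.47 (6.60 to 6.63). In starved muscle fish 4, isotig08583 measured 8.37 (7.56 to 7.66 in the others). In fed muscle, isotig08286 measured 8.77 in LLH fish 3 (7.77 to 7.90 in the others), isotig09167 measured 8.48 in LLH fish 2 (9.13 to 9.21), isotig14384 measured 6.09 in MHL fish 2 (6.21 to 6.22) and isotig01406 measured 9.31 in HLL fish 1 (8.28 to 8.41). Both flagged values of isotig14384 lie near background. A spot of it was well above background in only 3 of the 4 starved livers and in no fed muscle.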

How the results depend on the processing

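The median starvation change of the 47 sequences kept its direction in every alternative run. The rule chose the sequences by this direction in the same data, so that outcome is only a description. In the liver it was -1.30, and -1.16 with median centring and -1.54 with a normexp offset of 0. It was -1.63 with processed signals after Loess and Aquantile, -1.49 with the authors' ratios and -1.57 within arrays. On the scale of the rule it was -1.31. In the muscle it was 1.16, and 1.31 with no background correction, 1.48 with an offset of 0 and 1.36 with median centring. It was 1.69 with processed signals after Loess and Aquantile, 1.37 with the authors' ratios, 1.70 within arrays and 2.27 on the scale of the rule. The within-array values hold no MHL fish and were not normalised. Leaving out 1 fish gave -1.36 to -1.28 in the liver and 1.06 to 1.19 in the muscle. The number without overlap in muscle was 37, and 23 without normalisation between arrays (2453 and 1139 of all 25222 sequences). The rule found 50 sequences at a threshold of 0.5 and 34 at 1.0. It found 73 on normalised values, of which 31 are among the 47, and 121 on centred processed signals, an alternative chosen after seeing the data, as were the within-array values.

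For LLH against HLL in the liver the 1 call became 0 with log ratios (0.0119% of all sequences called) or the uncertain fish as LLH (0.00396%). It also became 0 with the fish number as a replicate block (adjusted p = 0.054 for isotig08583, 1.30% of all sequences called). It became 2 with median centring (0.662%) or the brightest probe (1.82%), and 3 with no background correction (2.24%) or quantile normalisation (1.91%). With dim probes left out it became 6 (3.26% of all sequences). Leaving out 1 fish gave 0 to 5 (0.658 to 2.35% of all sequences), and 0 to 2 for MHL against HLL (0.0833 to 2.12%). Without normalisation between arrays, 4 were called in muscle for MHL against HLL and 4 for LLH against HLL (3.71% and 5.57% of all sequences). In fed fish 7 instead of 11 were lower in the liver without normalisation between arrays (5628 instead of 9645 of all 25222 sequences). The number was 11 to 12 when 1 fish was left out. Also without normalisation between arrays, 32 instead of 33 were lower in starved liver (5946 instead of 8801 of all 25222 sequences). With the brightest probe, 30 instead of 33 were higher in fed liver (8801 of 25161 sequences instead of 8912 of 25222). The other tissue counts (33 higher in fed, 9 higher and 33 lower in starved liver) did not move when a fish was left out. With the fish number as a block within tissues, 31 were higher and 10 lower in fed liver (7751 and 8069 of all 25222 sequences). In starved liver 8 were then higher and 32 lower (6968 and 7897 of all 25222). With the fish as a block across tissues, chosen after seeing the data, the counts were as without it. Within a tissue, deviations of fish with the same number correlated between -0.26 and 0.48, and those of fish with different numbers between -0.49 and 0.36. These ranges do not settle whether the numbers pair the samples of a tissue. With the number as a block, 1.76% instead of 0.234% of all sequences were called for LLH against HLL in muscle. In liver 1.30% instead of 2.17% were. The cause of these changes was not tested. Precision is limited by 4 fish per group and, for isotig14384 and isotig10590, by signal near background.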
